A study of Mus musculus with 1 sample.

Results

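The genes described here are 10 receptor chains through which T cells sense cytokines: Il7r, Il2rb, Il2rg, Il4ra, Il21r, Il6ra, Il6st, Il18r1, Ifngr1 and Tgfbr2. They were chosen by name out of the 32285 genes measured, with earlier results of these data known. Their levels were compared between kinds of blood cells told apart by other genes. The data come from 1 vehicle-treated mouse of an autochthonous small cell lung cancer (SCLC) model on the C57BL/6 background, in which Cre delivered to the airways by an adenovirus deletes Rb1 and Trp53. The vehicle was PBS, given every 3 days. The study used male and female mice above a minimum age, and the age and sex of this mouse are not given in the sources used here. From 150 µl of blood, T cells were enriched by negative selection after lysis of red cells, and gene expression and TCR sequences were read from the same droplets. All groups below are thus cells of the same mouse, the same blood draw and the same library, and no untreated or tumour-free mouse enters the comparison.

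Cytokine receptors set which soluble signals a T cell can receive. Il2rg encodes the common gamma chain, which is shared by the receptors for IL-2, IL-4, IL-7, IL-9, IL-15 and IL-21, and each of these receptors adds a chain of its own. Il7r is known for keeping naive and memory T cells alive, and Il2rb is the chain through which memory CD8 T cells and NK cells respond to IL-15. Il6ra binds IL-6 and signals through gp130, the product of Il6st. Il18r1 and Ifngr1 bind IL-18 and interferon gamma, which belong to type 1 immunity, and Tgfbr2 binds TGF-beta, which restrains T cells.

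Each UMI stands for 1 captured RNA molecule, and 1600 barcodes with at least 1331 UMIs were taken as cells. Of these, 351 held Cd4 UMIs and none of Cd8a, Cd8b1, Foxp3 or Cd79a (Cd4-only), and 39 held Foxp3, the transcription factor of regulatory T cells, and no Cd79a. A further 595 held Cd8a or Cd8b1 UMIs alone and no UMI of the granzymes Gzmk, Gzma and Gzmb, and 106 held CD8 and granzyme UMIs. As a population of another lineage, 89 barcodes held UMIs of the B-cell gene Cd79a and none of the T-cell genes. The other 420 barcodes entered no comparison. The median number of UMIs per barcode was 3361 in Cd4-only, 3948 in Foxp3, 5664 in CD8 without granzyme, 5412 in CD8 with granzyme and 3515 in Cd79a barcodes. Values are UMIs pooled over a group per 10000 UMIs, with exact 95% Poisson intervals. They cover counting error only. No test was run, because 1 library holds no replicates.

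The labels of the groups were checked on markers that did not define them. A list of 7 T-cell genes, among them Cd3e and Trac, summed to between 28.4 and 39.9 UMIs per 10000 in the 4 T groups and to 0.781 in Cd79a barcodes. A list of 7 B-cell genes summed to 277 in Cd79a barcodes and to between 0.585 and 4.85 in the T groups. A list of 7 memory or effector CD8 genes stood at 243 in CD8 with granzyme and at 25.2 in CD8 without granzyme. Ccl5 alone gave 225 and 15.4 of these UMIs per 10000, Cxcr3 2.23 and 0.558, Eomes 2.58 and 0.468 and Klrg1 0.806 and 0, which allows up to 0.00772, while Ly6c2 was nearly level at 9.42 and 8.45. Foxp3 barcodes had 14.8 UMIs per 10000 of a list of 5 regulatory T-cell genes, against 2.96 in Cd4-only. Of these 5 genes, at least 3 were found in 18 Foxp3 and in 14 Cd4-only barcodes. Cd4-only was thus not free of barcodes with regulatory genes, and their part in the results below was not tested. The Foxp3 call was also thin, as 26 of the 39 Foxp3 barcodes held 1 Foxp3 UMI, 8 held CD8 and 18 held Cd4 UMIs. One of them carried 241 S100a8 and 253 S100a9 UMIs, which are neutrophil genes. CD8 without granzyme held 248 S100a8 and 289 S100a9 UMIs, and 3 of its barcodes had 3 or more of 4 neutrophil genes. At least 3 of 5 NK-cell genes were found in 2 Cd4-only, 1 CD8 with granzyme and 1 Cd79a barcodes. More barcodes held at least 3 of 4 platelet genes, 11 Cd4-only, 14 CD8 without granzyme, 3 CD8 with granzyme and 1 Cd79a. In CD8 with granzyme, 23 of 106 barcodes were called on 1 granzyme UMI.

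RNA content also differed between the groups. Ribosomal protein genes took under 10% of the UMIs in 39.9% of Cd4-only, 23.1% of Foxp3, 32.3% of CD8 without granzyme, 9.43% of CD8 with granzyme and 25.8% of Cd79a barcodes. Since the receptors differed between such barcodes and the rest, levels without them are given for some groups. These levels cover Il7r, Il2rb, Il6ra, Il6st, Tgfbr2, Il18r1 and Ifngr1, and not Il2rg, Il4ra and Il21r.

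The receptors were first compared between T cells and Cd79a barcodes. A gene counted as higher or lower when its pooled level differed at least 2-fold between both groups and it had at least 20 UMIs in them together, which all 10 receptors had in each of the 4 comparisons. Pooled over the 4 T groups, 6 of the 10 receptors were higher than in Cd79a barcodes, where 12.4% of 10522 genes tested were, and 0 were lower, where 11.7% of genes were. The ratio was 64.3 (29.5 to 175) for Il7r and 13.7 (4.68 to 66.7) for Il18r1. These rested on 6 and 3 UMIs in Cd79a barcodes, where free RNA at an assumed 5% of each barcode's UMIs would have given 12.3 and 1.58, so that the size of either ratio is not read further. Il2rb was at 8.43 (4.43 to 18.5) and Il6st at 7.44 (3.17 to 23.0). These also rested on few UMIs in Cd79a barcodes, 9 and 5, each in 4 barcodes. Il6ra was at 4.10 (2.43 to 7.53) and Ifngr1 at 2.36 (1.84 to 3.09). Il2rg was at 1.33, Il21r and Tgfbr2 were both at 1.13, and Il4ra was at 0.553 (0.386 to 0.817). The median log2 ratio of the receptors was 1.64, and that of all genes tested was -0.07. The 10 genes were chosen as receptors of T cells, so an excess over all genes was built into this comparison. Nothing is read from that excess. These ratios depend on how strictly the B-cell side was drawn. With any Cd79a UMI, which adds 17 barcodes that also hold Cd4, CD8 or Foxp3 UMIs, the log2 ratio of Il7r fell from 6.01 to 2.45, that of Il18r1 from 3.78 to 1.92 and that of Il2rb from 3.07 to 1.85, and Ifngr1 at 0.81 no longer passed the limit.

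Within the T cells fewer receptors passed the 2-fold limit. In Cd4-only against CD8 without granzyme, 0 of 10 were higher and 1 was lower, Il2rb, against 7.24% and 3.84% of 9958 genes tested. In CD8 with against without granzyme, 0 were higher and 2 were lower, Il6ra and Il6st, against 7.49% and 9.26% of 9631 genes. In Foxp3 against Cd4-only barcodes, 1 was higher, Il2rb, and 0 were lower, against 5.43% and 13.1% of 7943 genes. With 10 receptors each stands for 10% of the list, so a count of 0 or 1 is close to the share of all genes, and nothing is read from these counts about the receptors as a list.

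**Figure D1:**
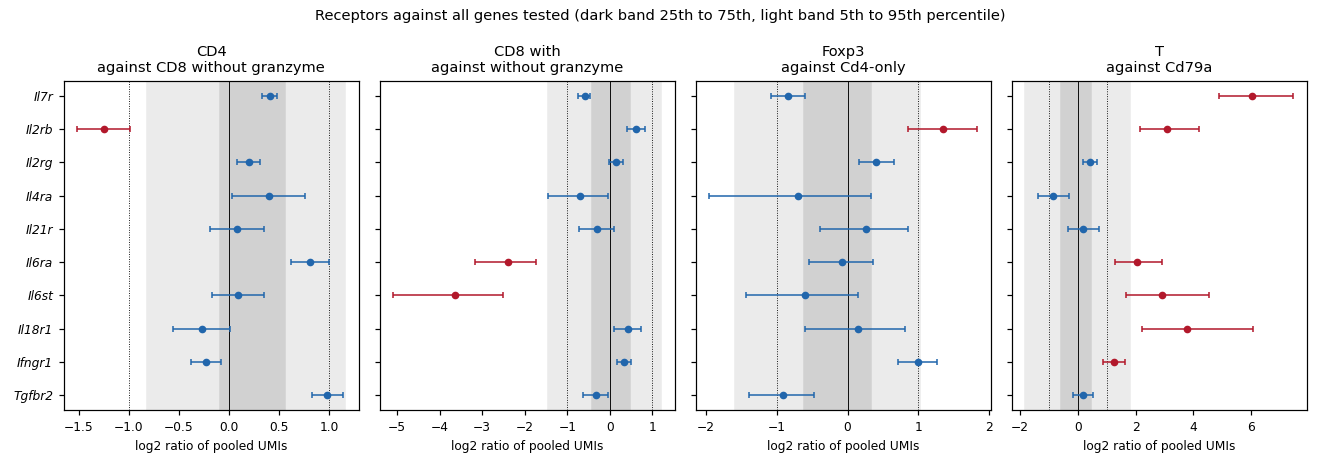
Log2 ratio of pooled UMIs for each receptor (rows) in the 4 comparisons (panels), with 95% counting intervals as bars, over the 25th to 75th (dark band) and the 5th to 95th percentiles (light band) of all genes tested. Il6ra and Il6st lie far to the left in CD8 with against without granzyme, at -2.40 and -3.64, and Il7r lies at 6.01 in T against Cd79a barcodes.

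Il7r, on chromosome 15 of GRCm38.p6 (ENSMUSG00000003882, chr15:9506159-9529941), had the widest span in UMIs per 10000 over the groups. Within the T groups alone, Il6st, Il6ra, Il2rb, Tgfbr2 and Il4ra spanned larger ratios. Il7r stood at 14.4 UMIs per 10000 (13.7 to 15.0) in Cd4-only, 10.8 (10.5 to 11.2) in CD8 without granzyme, 8.04 (6.82 to 9.41) in Foxp3, 7.17 (6.53 to 7.87) in CD8 with granzyme and 0.174 (0.0637 to 0.378) in Cd79a barcodes. The intervals of Foxp3 and CD8 with granzyme overlapped, and all other neighbours in this order lay apart in the pooled counts. The 6 Il7r UMIs of Cd79a barcodes came from 3 of 89 barcodes and were fewer than free RNA would have given, so that no Il7r above background was measured there. The share of Cd79a barcodes with Il7r was 3.37% (0.701% to 9.54%) before thinning. When each barcode was thinned to 2500 UMIs, Il7r was found in 83.0% of Cd4-only barcodes, 83.4% of CD8 without granzyme, 55.9% of Foxp3 and 51.5% of CD8 with granzyme. Before thinning these shares were 85.8%, 91.9%, 76.9% and 62.3%. The thinned barcodes of CD8 with granzyme were spread out, with no Il7r UMI in 48.5% and 3 or more in 27.7%, against 16.6% and 48.6% in CD8 without granzyme.

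Il2rb (ENSMUSG00000068227, chr15:78479256-78511621) had the opposite order among the T groups. It was highest in CD8 with granzyme at 3.62 UMIs per 10000 (3.17 to 4.12), followed by Foxp3 at 2.56 (1.89 to 3.38) and CD8 without granzyme at 2.36 (2.21 to 2.52), and it was lower in Cd4-only at 0.999 (0.839 to 1.18) and in Cd79a barcodes at 0.260 (0.119 to 0.494). The intervals of CD8 with granzyme and Foxp3 overlapped, as did those of Foxp3 and CD8 without granzyme. CD8 without granzyme held 2.37 times (1.98 to 2.85) the Il2rb level of Cd4-only barcodes, and CD8 with granzyme held 1.53 times that of CD8 without. After thinning, Il2rb was found in 12.1% of Cd4-only, 34.8% of CD8 without granzyme and 60.4% of CD8 with granzyme barcodes, and before thinning in 14.8%, 52.6% and 81.1%. In thinned Cd79a barcodes the share was 1.59%. The ratio of 2.56 (1.81 to 3.57) in Foxp3 against Cd4-only rested on 49 UMIs, of which 18 were in 1 barcode, and without that barcode the log2 ratio fell from 1.36 to 0.81, which is under 2-fold.

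Il2rg (ENSMUSG00000031304, chrX:101264385-101268255), the shared chain, varied least between the T groups together with Il21r. It stood at 8.50 UMIs per 10000 (7.25 to 9.92) in Foxp3, 6.41 (5.99 to 6.85) in Cd4-only, 6.18 (5.58 to 6.82) in CD8 with granzyme, 5.59 (5.35 to 5.83) in CD8 without granzyme and 4.45 (3.78 to 5.22) in Cd79a barcodes. It was also the receptor found most evenly across lineages, in 61.9% of thinned Cd79a barcodes and in 67.1% to 80.2% of the thinned barcodes of the T groups. Il21r, the chain specific for IL-21, lay between 0.901 (0.682 to 1.17) in CD8 with granzyme and 1.41 (0.928 to 2.05) in Foxp3, and no neighbouring groups had intervals apart. Il4ra, the ligand-binding chain for IL-4, was the only receptor of the 10 that had its own highest level in Cd79a barcodes, at 0.954 (0.657 to 1.34), with an interval that overlapped that of Cd4-only. It ranged from 0.316 (0.193 to 0.488) in CD8 with granzyme to 0.678 (0.547 to 0.831) in Cd4-only among the T groups. Il4ra (ENSMUSG00000030748, chr7:125552271-125579474) and Il21r (ENSMUSG00000030745, chr7:125603252-125634397) are neighbours on the chromosome with 23777 bases and 0 other genes between them.

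**Figure D2:**
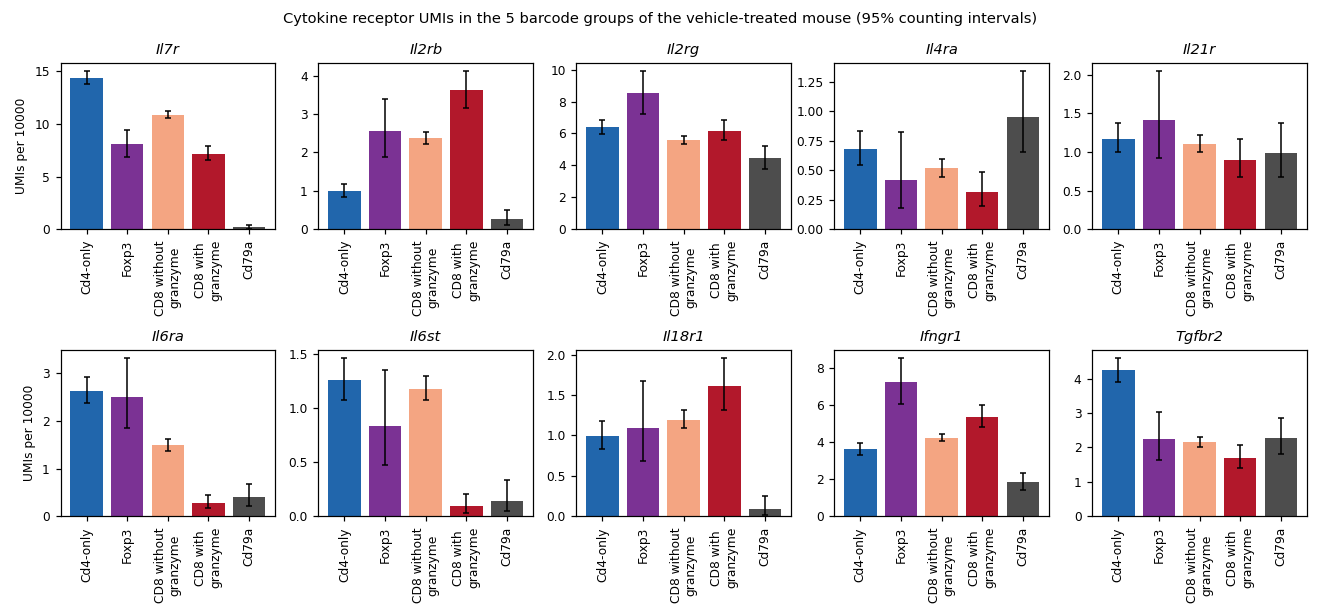
Pooled UMIs per 10000 (y axis, linear, from 0) of each receptor in the 5 barcode groups of the vehicle-treated mouse, with exact 95% Poisson intervals as bars. Il7r falls from 14.4 in Cd4-only to 7.17 in CD8 with granzyme, where Il2rb is highest at 3.62 and Il6st is near 0 at 0.0948.

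Both chains of the IL-6 receptor were low in CD8 barcodes with granzyme. Il6ra (ENSMUSG00000027947, chr3:89869324-89913196) stood at 2.63 UMIs per 10000 (2.37 to 2.92) in Cd4-only, 2.50 (1.85 to 3.32) in Foxp3, 1.50 (1.38 to 1.63) in CD8 without granzyme, 0.405 (0.221 to 0.679) in Cd79a barcodes and 0.284 (0.169 to 0.450) in CD8 with granzyme. Il6st (ENSMUSG00000021756, chr13:112464070-112506860) stood at 1.26 (1.08 to 1.46) in Cd4-only, 1.18 (1.08 to 1.29) in CD8 without granzyme, 0.835 (0.477 to 1.36) in Foxp3, 0.145 (0.0470 to 0.337) in Cd79a barcodes and 0.0948 (0.0348 to 0.206) in CD8 with granzyme. CD8 without granzyme therefore had 5.27 times (3.31 to 8.96) the Il6ra level and 12.5 times (5.68 to 34.1) the Il6st level of CD8 with granzyme. The 106 barcodes with granzyme held 18 Il6ra UMIs in 15 barcodes and 6 Il6st UMIs in 5 barcodes, and free RNA at 5% would have given 2.35 and 2.13.

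The median number of UMIs was 5664 without and 5412 with granzyme. After thinning, Il6ra was found in 34.6% of CD8 barcodes without granzyme and in 4.95% with granzyme, and Il6st in 26.6% and 0.990%. In thinned Cd79a barcodes the shares were 7.94% for Il6ra and 1.59% for Il6st. Before thinning the shares were 56.6% and 14.2% for Il6ra and 46.1% and 4.72% for Il6st. Barcodes of low ribosomal share were fewer among those with granzyme. They held more of both genes in CD8 without granzyme. The 10 with granzyme held 0 Il6ra UMIs, and 2 Il6st UMIs or 0.508 UMIs per 10000 (0.0615 to 1.84). In the other barcodes alone, Il6ra was at 1.19 UMIs per 10000 without and 0.303 with granzyme, and Il6st at 0.814 and 0.0674. Those barcodes had a median of 8023 UMIs without and 5603 with granzyme. Il6ra also differed between Cd4-only and CD8 without granzyme, by 1.75 times (1.53 to 2.00), which is under the 2-fold limit.

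**Figure D3:**
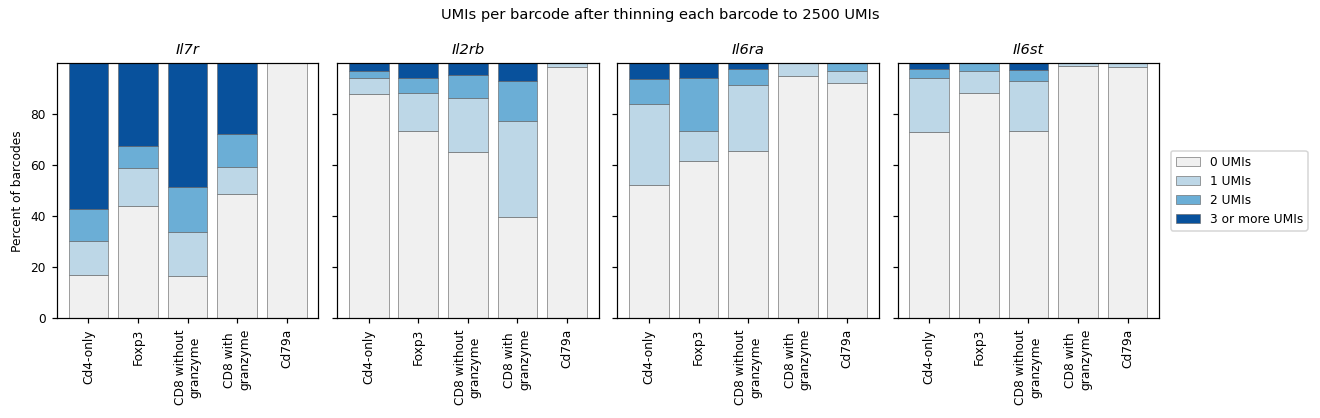
Percent of barcodes (y axis) in each group with 0, 1, 2 and 3 or more UMIs of Il7r, Il2rb, Il6ra and Il6st after every barcode was thinned to 2500 UMIs, without the shallower ones. In CD8 with granzyme 48.5% of barcodes have no Il7r UMI and 4.95% have an Il6ra UMI, while 60.4% have an Il2rb UMI.

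Since Il6ra and Il6st were low in the same barcodes, the 250 bases before their starts are shown, as RefSeq gives them on GRCm38.p6, read 5′ to 3′ along each gene. Capitals mark matches to GGAAG, the core bound by ETS factors, and to GGGCGG, the core bound by SP1, on either strand.
Il6ra, chr3:89913197-89913446, minus strand: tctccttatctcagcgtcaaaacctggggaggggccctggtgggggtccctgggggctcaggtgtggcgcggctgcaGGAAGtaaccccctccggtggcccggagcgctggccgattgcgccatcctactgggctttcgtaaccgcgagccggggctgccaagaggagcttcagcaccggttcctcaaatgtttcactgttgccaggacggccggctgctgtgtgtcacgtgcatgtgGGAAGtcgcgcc
Il6st, chr13:112463820-112464069, plus strand: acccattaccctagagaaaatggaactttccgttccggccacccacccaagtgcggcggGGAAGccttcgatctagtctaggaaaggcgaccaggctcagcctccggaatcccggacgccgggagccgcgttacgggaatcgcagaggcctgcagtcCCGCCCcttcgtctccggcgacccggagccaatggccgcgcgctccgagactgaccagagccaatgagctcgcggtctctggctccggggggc
GGAAG begins at bases -173 and -12 from the start of Il6ra and at -191 from that of Il6st, and GGGCGG lies at -93 in Il6st, on the opposite strand. Among 32851 promoter windows of 300 bases, 64.1% held GGAAG and 32.7% held GGGCGG. Such windows are longer than the 250 bases shown, so these shares and those below are not for the same length. Neither match is read further. CACCC, the core bound by KLF factors and found in 52.0% of all windows, occurred at -211 and -207 in Il6st and not in Il6ra. TCACAC, a T-box core (12.3% of windows), CTTTGA, a TCF and LEF core (13.8%), and TTCNNNGAA, the STAT core (7.02%), were in neither stretch, which says only that these letters are not in these windows. Of the 10 receptors, 9 had a promoter entry in this table, and Il2rb had none.

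Il18r1 (ENSMUSG00000026070, chr1:40465552-40500854), the ligand-binding chain for IL-18, was close to background in Cd79a barcodes, with 3 UMIs in 1 of 89 barcodes or 0.0868 UMIs per 10000 (0.0179 to 0.254). In the T groups it stood at 1.61 (1.31 to 1.96) in CD8 with granzyme, 1.20 (1.09 to 1.31) in CD8 without, 1.10 (0.678 to 1.67) in Foxp3 and 0.992 (0.832 to 1.17) in Cd4-only, and the last 3 overlapped. Ifngr1 (ENSMUSG00000020009, chr10:19591949-19610229), the ligand-binding chain for interferon gamma, had intervals apart between all neighbouring groups in the pooled counts, with 7.20 (6.05 to 8.51) in Foxp3, 5.36 (4.80 to 5.96) in CD8 with granzyme, 4.24 (4.04 to 4.45) in CD8 without, 3.62 (3.31 to 3.95) in Cd4-only and 1.82 (1.40 to 2.33) in Cd79a barcodes. Its ratio of 1.99 (1.64 to 2.41) in Foxp3 against Cd4-only was just under the 2-fold limit. Without barcodes of low ribosomal share, Il18r1 was at 1.16 in Cd4-only and 0.955 in CD8 without granzyme, with overlapping intervals. Ifngr1 was then at 4.02 (3.63 to 4.43) in Cd4-only and 3.91 (3.70 to 4.14) in CD8 without granzyme, which also overlapped.

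Tgfbr2 (ENSMUSG00000032440, chr9:116087695-116175363), the ligand-binding chain for TGF-beta, was highest in Cd4-only barcodes at 4.24 UMIs per 10000 (3.90 to 4.60). It was at 2.28 (1.81 to 2.85) in Cd79a barcodes, 2.24 (1.62 to 3.02) in Foxp3, 2.15 (2.01 to 2.30) in CD8 without granzyme and 1.71 (1.40 to 2.06) in CD8 with granzyme, and these last neighbours overlapped. The ratio of Cd4-only to CD8 without granzyme was 1.97 (1.77 to 2.19), just under the limit, and Il2rb was the only receptor beyond it. In this comparison the median log2 ratio of all genes tested was 0.24. Relative to it, Tgfbr2 was at 0.74, Il6ra at 0.57, Il7r at 0.17, Il2rb at -1.48 and Ifngr1 at -0.47 on the log2 scale. The directions of Il2rg, Il21r and Il6st turned with this centring. Those of Ifngr1 and Il18r1 turned, to 0.04 and 0.28, when barcodes of low ribosomal share were left out, so that no direction is given for these 5 genes between Cd4-only and CD8 barcodes without granzyme.

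The CD8 barcodes with granzyme were also split by the kind of granzyme they held. Il7r stood at 9.53 UMIs per 10000 (8.26 to 10.9) in the 39 barcodes with Gzmk and neither Gzma nor Gzmb, at 8.30 (6.98 to 9.81) in the 26 with Gzma or Gzmb and no Gzmk, and at 4.50 (3.71 to 5.40) in the 41 with both. The interval of the last lay below those of the others in the pooled counts. The shares of barcodes with Il7r were closer, at 61.5%, 69.2% and 58.5% before thinning. Il2rb was nearly level over these kinds, at 3.75, 3.97 and 3.28. Il18r1 was at 1.14 (0.729 to 1.69), 2.65 (1.92 to 3.55) and 1.33 (0.921 to 1.86), highest in barcodes with Gzma or Gzmb and no Gzmk. Il6ra was low in each of them, at 0.285, 0.481 and 0.156, and Il6st at 0, which allows up to 0.142, at 0.0602 and at 0.195.

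Il7r also differed between barcodes of repeated and single TCR clonotypes, as assigned by the authors. In CD8 with granzyme, the 43 barcodes of clonotypes seen in 2 or more cells had 5.73 Il7r UMIs per 10000 (4.78 to 6.81), and the 52 barcodes of clonotypes seen in 1 cell had 8.32 (7.42 to 9.31). Ifngr1 was higher in the former, at 6.71 (5.68 to 7.87) against 4.53 (3.87 to 5.27), and Il2rb was nearly equal, at 3.64 and 3.71. In Cd4-only, the 12 barcodes of such clonotypes had 8.61 Il7r and 3.38 Il2rb UMIs per 10000 (2.06 to 5.22 for Il2rb), against 14.6 and 0.970 in 240 barcodes of clonotypes seen in 1 cell. In CD8 without granzyme the intervals for Il7r overlapped, at 7.80 (5.84 to 10.2) in 12 barcodes of repeated clonotypes and 10.0 (9.66 to 10.4) in 406 others. Barcodes of the same clonotype descend from 1 cell and are not independent.

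Among partner chains of the receptors, CD8 with granzyme had more of Il18rap, the signalling chain for IL-18, at 3.38 times the level without granzyme (2.55 to 4.44), and of Il15ra, which presents IL-15 to Il2rb, at 3.28 times (1.91 to 5.49). It had less of Ifngr2, the signalling chain for interferon gamma, with 2 UMIs against 118, where CD8 without granzyme was 9.61 times higher (2.60 to 80.2), and less of Tgfbr3, the co-receptor for TGF-beta, by 3.85 times (1.91 to 9.04). Thus 2 of 7 partner chains tested were higher and 2 lower, against 7.49% and 9.26% of all genes, and their median log2 ratio was -0.41. Ifng itself had 25 UMIs with granzyme and 0 without, at least 51.2-fold higher. Ifngr1 and Ifngr2, which form 1 receptor, moved apart in this comparison, as Ifngr1 was at 1.26 times. The ratios of these chains and of the pathway genes below were not recomputed without barcodes of low ribosomal share. Such barcodes made up 32.3% of CD8 without and 9.43% of CD8 with granzyme, and their part in these ratios was not tested.

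Other receptors of the same kind gave 0 of 10 tested that were lower and 2 that were higher in CD8 with granzyme, where 7.49% of all genes were higher, Il10ra, the ligand-binding chain for IL-10, at 4.23 times (3.23 to 5.51), and Tnfrsf1b, a receptor for TNF, at 2.71 times (1.79 to 4.03). Of 11 kinases and STATs that pass the signal on, 0 were past 2-fold in either direction, and Jak1, which binds several of these chains, was at 1.36 times (1.24 to 1.50). Of 8 SMADs and IL-18 adaptors 0 were past 2-fold. Over all genes 7.49% were higher and 9.26% lower, so these counts of 0 are not read further. Of 14 inhibitors tested, Cish, which is induced by STAT5 and limits it, was higher at 5.04 times (2.78 to 9.08) with 23 and 28 UMIs, as was Ptpn11 at 2.24 times (1.61 to 3.08), while Socs5 and Smad7 were lower.

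In Cd4-only against CD8 without granzyme, Stat5b was the 1 of 11 kinases and STATs past 2-fold, at 2.31 times (2.00 to 2.67), and Tgfbr3 the 1 of 7 partner chains, at 3.30 times (2.70 to 4.03). Il10rb and Il12rb1 were lower among 12 other receptors tested, while Il1rl2 was higher, and of 15 inhibitors Socs2 and Cish were higher. Of all genes tested, 7.24% were higher and 3.84% lower, so nothing is read from these small counts about the lists. The median log2 ratio of all genes was 0.24 here, and the ratios of these pathway genes are not centred on it. In Foxp3 against Cd4-only barcodes, Il2ra, the chain that gives high affinity for IL-2 and that the regulatory marker list also holds, stood at 30.1 times (11.0 to 102), with 21 UMIs against 5. Il10rb was at 2.92 times (1.64 to 5.01) and Il10ra at 2.17 times (1.18 to 3.79), and Tgfbr3 was 3.42 times lower (1.77 to 7.57). None of the 11 kinases and STATs was past 2-fold in that comparison, where 5.43% of all genes were higher and 13.1% lower. T groups against Cd79a barcodes had 4 of 9 partner chains higher, with Tgfbr3 at 426 UMIs against 1, and 3 lower, Il2ra, Il9r and Ifngr2, against 12.4% and 11.7% of all genes tested. The median log2 ratio of these 9 chains was -0.34.

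Il2rb marked barcodes that differed in other genes as well. Within CD8 without granzyme, 188 of 541 thinned barcodes held Il2rb. Il18r1 was found in 38.8% of them (31.8% to 46.2%) and in 17.6% of the 353 others (13.7% to 21.9%), and Ifngr1 in 69.1% and 54.1%. Ccl5, a chemokine of memory and effector CD8 T cells, was found in 46.3% and 13.3%, and Ly6c2, a surface protein of memory CD8 T cells, in 66.0% and 32.6%. The naive gene Ccr7, which leads T cells to lymph nodes, was nearly level at 66.5% against 68.8%. In barcodes of ordinary ribosomal share alone, Il18r1 was at 33.3% and 14.3% and Ccl5 at 54.1% and 15.5%, whereas the intervals for Ifngr1 overlapped at 66.7% and 54.0%.

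Fewer Cd4-only barcodes held Il2rb. Of 265 thinned barcodes 32 held it, and Cxcr3, a chemokine receptor of type 1 T cells, was found in 56.2% of them (37.7% to 73.6%) and in 4.29% of the other 233. Ikzf2, a factor of regulatory T cells, was found in 37.5% and 6.44%. Il6ra was lower, at 15.6% against 52.4%, as was Ccr7 at 28.1% against 73.4%, while Il7r was nearly level at 84.4% and 82.8%. In ordinary barcodes alone Cxcr3 was at 57.1% and 6.58% and Il6ra at 14.3% and 44.7%. Of the 90 ordered pairs of receptors, 10 had intervals apart in CD8 without granzyme, each with more of the second receptor where the first was found, and 4 in Cd4-only, each with less. The pairs in CD8 joined Il7r, Il2rb, Il18r1 and Ifngr1, and those in Cd4-only were Il2rb with Il6ra and Il21r with Il18r1. In barcodes of ordinary ribosomal share alone, 4 pairs had intervals apart in CD8 without granzyme, Il7r with Ifngr1 and Il2rb with Il18r1 in both orders, and 2 in Cd4-only, Il2rb with Il6ra. Each of these pairs was counted in both orders, which is the same association. No share over pairs of other genes was computed, so nothing is read from these counts about the receptors as a list.

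**Figure D4:**
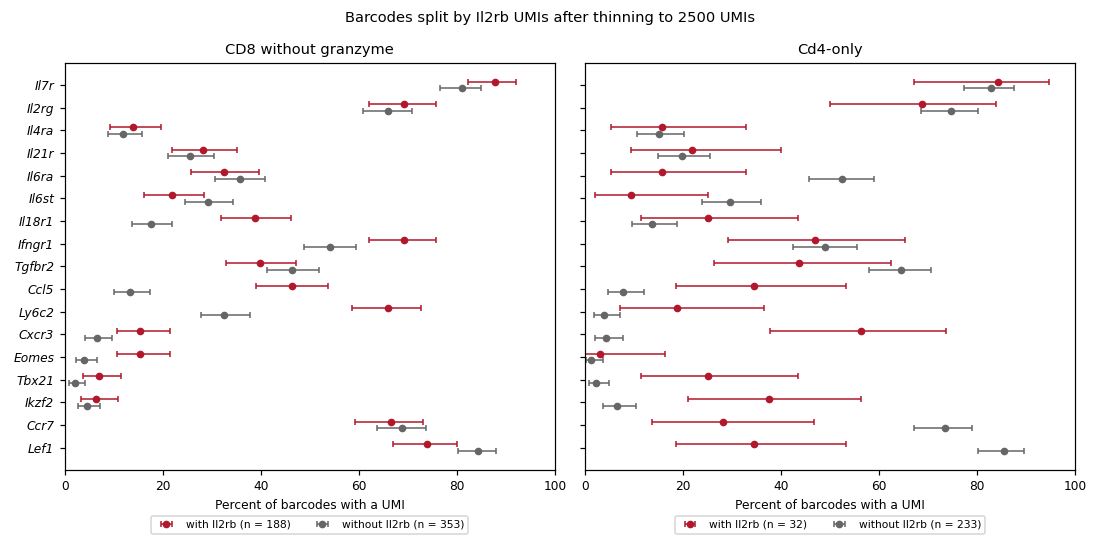
Percent of thinned barcodes with a UMI of each gene (x axis) among those with Il2rb (red) and without (grey), in CD8 without granzyme (left) and Cd4-only barcodes (right), with exact 95% binomial intervals as bars. Il18r1, Ccl5 and Ly6c2 are higher with Il2rb on the left, and on the right Cxcr3 reaches 56.2% while Il6ra falls to 15.6%.

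The genes whose levels were most like those of a receptor were sought over 740 barcodes of the T groups with ordinary ribosomal share and 8252 genes. The measure is Pearson's r between levels, as ln(1 + UMIs per 10000), a description over barcodes of 1 library that share its depth. Il2rb was most like Ccl5 (0.527), Nkg7 (0.495), Ahnak (0.486), Ly6c2 (0.458) and Samd3 (0.453). The r of Il2rb with the log of the UMI total was 0.303. The T groups were pooled here, and Il2rb and Ccl5 were both highest in CD8 with granzyme. How far these r values come from differences between the groups was not tested. Il18r1 was most like Lgals1 (0.308), and reached 0.297 with Il2rb. Il7r was most like Emb (0.297) and Il6ra most like Inpp4b (0.301), which also led for Tgfbr2 (0.213). For Il4ra and Il21r no gene reached an r of 0.2.

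RNA content moved with several receptors. Pooled over the 4 T groups, barcodes of low ribosomal share held 3.90 times the Il6st level of the others (3.33 to 4.56), 3.0 times that of Tgfbr2 (2.71 to 3.33), 2.75 times that of Il6ra (2.42 to 3.13) and 1.72 times that of Il7r (1.63 to 1.82). Il4ra was at 1.86 times (1.45 to 2.37) and Il21r at 1.50 times (1.25 to 1.79). Il2rg went the other way at 0.590 times (0.532 to 0.652). The mix of groups differed, as CD8 with granzyme made up 96 of 740 ordinary and 10 of 351 low barcodes. In Cd4-only and CD8 without granzyme, Il6st was at 3.61 and 3.57 times and Tgfbr2 at 2.45 and 2.91. Il6ra was at 2.45 and 2.47 times there, and Il7r at 1.32 and 1.83. Il18r1 and Ifngr1 changed direction with the group. Il18r1 was at 0.485 times (0.293 to 0.771) in Cd4-only and at 2.44 times (2.01 to 2.97) in CD8 without granzyme, and Ifngr1 at 0.651 (0.518 to 0.811) and 1.47 (1.31 to 1.65). Il2rb was at 0.617 times (0.389 to 0.947) in Cd4-only and at 1.10 times (0.926 to 1.30) in CD8 without granzyme. Leaving these barcodes out kept the order of the groups for Il7r, at 13.1 UMIs per 10000 in Cd4-only, 9.46 in CD8 without and 6.96 in CD8 with granzyme. Tgfbr2 then was at 3.0 in Cd4-only and 1.61 in CD8 without granzyme, and Il2rb at 1.12 and 2.32. In barcodes of low ribosomal share alone, Il7r was level, at 17.4 in Cd4-only and 17.3 in CD8 without granzyme.

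**Figure D5:**
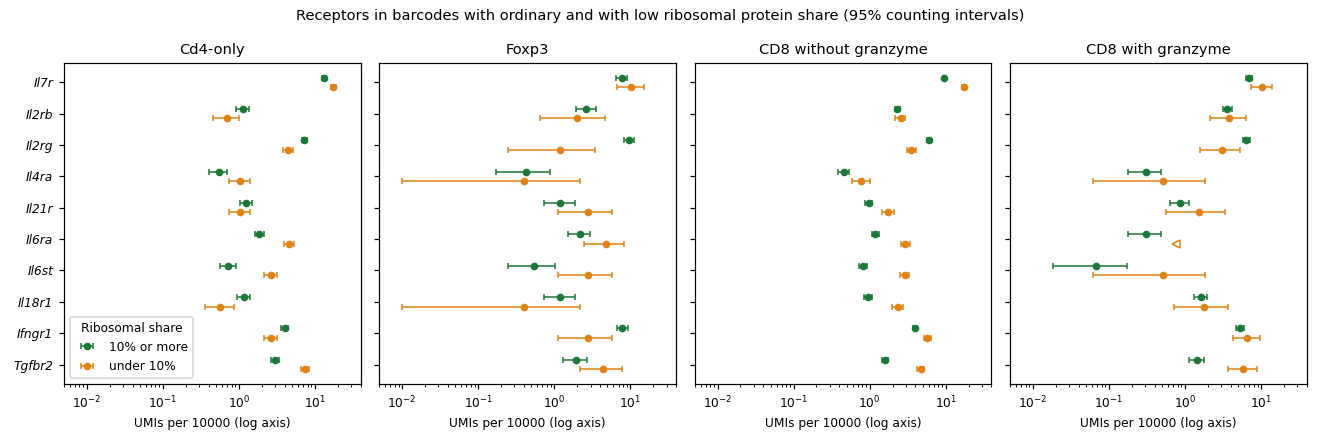
Pooled UMIs per 10000 (log x axis) of each receptor in barcodes with a ribosomal protein share of 10% or more and under 10%, in one panel per group, with exact 95% Poisson intervals as bars. Il6st and Tgfbr2 lie further right in barcodes under 10%, and Il2rg lies further left, at 0.590 times over the T groups. Il6ra lies further right except in CD8 with granzyme, where 10 such barcodes held 0 UMIs. An open arrow marks the upper bound of a 0, here 0.762.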

How the data were processed

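Gene expression and TCR libraries of 1 mouse were analysed. The authors processed the reads with Cell Ranger (version 4 in the file header, GRCm38 in the submitters' processing notes) and deposited a matrix of raw UMI counts for all barcodes, unfiltered, and a table of TCR contigs with clonotypes. Barcodes were called from the 99th percentile of UMIs among the 3000 largest barcodes, divided by 10. Deposited counts were pooled per group, with exact Poisson, binomial (Clopper-Pearson) and conditional binomial intervals at 95%. A group with 0 UMIs was set at 3 counts and called only in the direction of that bound. Shares were taken after thinning to 2500 UMIs, without shallower barcodes. Free RNA came from 20532 barcodes with 10 to 50 UMIs. Scrublet predicted 14 doublets among 1600 barcodes (0.875%), which were kept. Named genes are the 10 receptors, genes of fixed pathway and marker lists, and up to 5 genes with r of at least 0.2. The receptors and lists were chosen with earlier results of these data known. The ratios, the 2-fold rule and the intervals were run on simulated group totals with known changes, drawn as Poisson counts. Spread between barcodes was not simulated, so that run says nothing about it. Alternatives were 12 planned ones (other cell limits, 2 defining UMIs, clonotyped barcodes, thinning, ribosomal share, free RNA, means over barcodes, doublets and other definitions) and 5 added after seeing the data. Python 3.11.15, NumPy 2.4.6, SciPy 1.17.1, pandas 2.3.3 and Scanpy 1.11.5 were used. Positions and promoters are RefSeq's on GRCm38.p6. The libraries of other mice were not analysed here. Results of some genes are not reported here.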

Additional observations from a re-analysis of the deposited data

How the results depend on the processing

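Of 520 recomputed log2 ratios of the receptors, 455 stayed within the counting interval of the reported value, 65 left it, and 0 of the 2-fold differences changed sign. Of 112 recomputed counts of receptors past 2-fold, 94 stayed within 1.5 times. These 94 include counts of 0 that stayed 0. They also include the counts at a UMI minimum of 10, which could not change because all 10 receptors had at least 20 UMIs. The log2 ratio in CD8 with against without granzyme ranged from -3.24 to -1.95 for Il6ra and from -5.25 to -2.52 for Il6st, and that of Il2rb in Cd4-only against CD8 without granzyme from -1.88 to -1.02. In that last comparison, 1 receptor (Tgfbr2) instead of 0 was higher in clonotyped barcodes and after subtraction of free RNA, and 3 (Il2rb, Il18r1 and Ifngr1) instead of 1 were lower in barcodes of low ribosomal share alone. In Foxp3 against Cd4-only barcodes, 1 receptor was higher. With 2 defining UMIs, clonotyped barcodes, free RNA subtracted, the mean over barcodes, centring on the median gene, or the barcode rich in S100a8 and S100a9 left out, 2 were (Il2rb and Ifngr1). In low ribosomal share alone, 2 were (Il2rb and Il21r), and after thinning, or without the barcode of most Il2rb UMIs, 0 were. Lower there were 1 with 2 defining UMIs (Tgfbr2), in clonotyped barcodes (Il6st), after thinning (Il6st), with Cd4 and no CD8 asked of Foxp3 barcodes (Tgfbr2) and with thinning plus ordinary ribosomal share (Il6st), and 2 in low ribosomal share alone (Il2rg and Il4ra), instead of 0. The causes were not tested. The 39 Foxp3 barcodes limit that comparison, of which 13 are left with 2 Foxp3 UMIs. No paired analysis was possible because there is 1 library.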

Other observations

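Cells outside the 5 groups held the receptors in other combinations, given here as values. In 11 barcodes marked by NK-cell genes, Il2rb stood at 10.2 UMIs per 10000 (7.48 to 13.6), Ifngr1 at 16.7 (13.1 to 20.9), Il18r1 at 4.67 and its partner chain Il18rap at 7.11, Il7r at 0.889, and Il6ra, Il6st and Il4ra at 0, which allows up to 0.667. In 15 barcodes marked by monocyte genes, Il6ra was at 1.90 and Il2rb at 0, which allows up to 0.356. In 17 marked by neutrophil genes, Il6ra was at 1.62, Il18rap at 2.52 and the decoy receptor Il1r2 at 5.75. In 3 marked by basophil genes, Il7r was at 6.82, Il18r1 at 4.01 and Csf2rb, the chain shared by the receptors for IL-3, IL-5 and GM-CSF, at 12.4. Another 305 barcodes of no group held a CD3 UMI, and Il7r was at 13.2 and Il2rb at 2.47 in them.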
